A study of Homo sapiens with 16 samples.

Results

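Matrix metalloproteases (MMPs), the ADAMTS proteases and the tissue inhibitors of metalloproteases (TIMPs) were followed over 5 days with activin A in the human embryonic stem cell line H9. Members were taken by symbol: any gene annotated as MMP, ADAMTS or TIMP followed by its number, with 1 probe set per gene, the one with the highest mean over all samples. The rule found 46 of the 18421 gene symbols on the array, of which 24 are MMPs, 18 ADAMTS proteases and 4 TIMPs. They occupy 45 probe sets, because MMP23A and MMP23B share one.

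The samples were 4 of undifferentiated cells (day 0), 3 after 1 day, 3 after 3 days and 4 after 5 days with activin A at 100 ng/ml, a ligand that drives stem cells toward definitive endoderm, from which gut and liver form. All came from 1 line. Undifferentiated cells grew on mouse embryonic fibroblasts or on Matrigel, in medium conditioned by such fibroblasts and with basic FGF at 8 ng/ml. Activin was given in RPMI without that conditioned medium, with serum at 0%, 0.2% and 2%, so that activin, medium, serum and time cannot be told apart. RNA was measured on Human Exon 1.0 ST arrays, and values are given as log2 of the intensity plus 1. The p-values measure the spread between samples that the labels call biological replicates.

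MMPs are zinc proteases that cut collagens, gelatin and other matrix proteins outside the cell. They are made as inactive precursors that other proteases cut open, and some are anchored in the cell membrane. ADAMTS proteases carry thrombospondin repeats, and among them are enzymes that trim the proteoglycans aggrecan and versican, process procollagens or cut von Willebrand factor. TIMPs bind the active site of MMPs, and TIMP3 also inhibits several ADAMTS enzymes. In the embryo, these enzymes take part in the movement of cells through matrix and basement membrane.

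One library went against its label in its endoderm markers. In the library labelled day 3 replicate 2, SOX17, GSC and CXCR4, transcription factors and a receptor of definitive endoderm, read 5.52, 5.07 and 7.58, against 11.21, 10.53 and 11.83 in day 3 replicate 1. The mean over the 10 endoderm markers was 7.20 in that library, 11.47 and 11.72 in the other day 3 samples and 6.58 to 7.81 at day 0, beside 11.21 to 12.17 at day 5. Its median correlation with its group was 0.83, and that of day 5 replicate 2 was 0.858, whereas the others had 0.901 to 0.962. Counts and tests that rest on day 3 are therefore given with and without this library. The mean over 6 pluripotency markers was 10.77 to 11.26 at day 5, against 12.17 to 12.53 at day 0. In day 3 replicate 2 this mean was 11.65, below all of day 0, and in the other day 3 samples 11.01 and 11.19. LIN28A, LIN28B, PRDM14 and DNMT3B lay below all of day 0 in that library, whereas DPPA4 and ZFP42 lay above. Of the 6 pluripotency markers, PRDM14 (-2.58), DNMT3B (-1.83) and LIN28B (-0.77) were called lower at day 5 (limma, adjusted p = 0.00251, 0.0242 and 0.0304). LIN28A, DPPA4 and ZFP42 were not called at day 5. Over 7 fibroblast markers the mean ran from 6.85 to 7.98 at day 5, against 6.83 to 7.15 at day 0, and the differences of single markers had both signs. LUM was called higher at day 5 (4.57, limma adjusted p = 0.00241), whereas COL1A1, at 8.90, 6.83, 9.37 and 11.10 at day 5, against 10.71, 10.58, 10.24 and 11.87 at day 0, differed by -1.80 and was not called (limma, adjusted p = 0.184). Day 0 replicate 4 had the highest COL1A1, COL1A2 and PDGFRB values of day 0 (11.87, 10.49 and 8.28) and the lowest LUM and POSTN values (3.57 and 5.04). In bulk RNA, fewer cells of a type and less RNA per cell cannot be told apart.

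Of the 45 member probe sets, 12 had a mean below 5.83, the bound of the dimmest 25% of all 18495 probe sets, and 33 lay above it. Brightness depends on the probes as well as on the RNA, so these values do not order the genes by expression. The 12 were MMP1, MMP3, MMP7, MMP8, MMP12, MMP13, MMP20, MMP21, MMP26, MMP27, MMP28 and the probe set shared by ADAMTS20 and THAP12. They include all 3 collagenases, the enzymes that cut fibrillar collagen (MMP1, MMP8 and MMP13), with values of 3.55 to 5.58 over the 14 samples. Both matrilysins, small MMPs without the haemopexin domain (MMP7 and MMP26), were among them too, at 2.81 to 6.50. None of the 4 TIMPs, the 6 membrane-type MMPs and the 2 gelatinases lay in the dimmest 25%. Genes that neighbour each other on the chromosome shared this feature: MMP7, MMP20, MMP27, MMP8, MMP10, MMP1, MMP3, MMP12 and MMP13 follow one another on chromosome 11, and 8 of these 9 lay in the dimmest 25%. MMP10, stromelysin 2, was the exception with a mean of 6.09.

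The promoters of the dim members had a lower median GC content than those of the brighter ones, with overlapping ranges. Dim and bright refer to the probe sets, and a link between promoter and expression was not tested. RefSeq promoters on GRCh38.p14 were found for 26 of the 46 genes, and the 250 bases before each start are used here. Median GC content was 38.8% in 7 genes of the dimmest 25%, 72.4% in 19 brighter ones and 58.0% over all 35116 promoters in the table. The 7 include MMP7, MMP8, MMP20 and MMP27 of the chromosome 11 run. They also include ADAMTS20, counted as dim by the probe set it shares with THAP12, which cannot be assigned to either gene. MMP23B was counted as brighter by the probe set it shares with MMP23A. As examples, the promoters of ADAMTS18 and MMP24, both called at day 5, and of TIMP1 and TIMP4, which took different courses, are set beside that of MMP7 from the chromosome 11 run. Capitals mark the GC box (GGGCGG or its complement CCGCCC), the TATA box (TATAAA) and the AP-1 motif (TGANTCA), the letters bound by FOS and JUN proteins.
ADAMTS18, chr16:77435035-77435284, minus strand: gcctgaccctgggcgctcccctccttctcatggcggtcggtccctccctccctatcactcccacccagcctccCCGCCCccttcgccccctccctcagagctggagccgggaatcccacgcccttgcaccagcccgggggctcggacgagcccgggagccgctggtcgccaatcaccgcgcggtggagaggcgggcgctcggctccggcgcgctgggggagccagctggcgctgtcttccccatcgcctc
MMP24, chr20:35226440-35226689, plus strand: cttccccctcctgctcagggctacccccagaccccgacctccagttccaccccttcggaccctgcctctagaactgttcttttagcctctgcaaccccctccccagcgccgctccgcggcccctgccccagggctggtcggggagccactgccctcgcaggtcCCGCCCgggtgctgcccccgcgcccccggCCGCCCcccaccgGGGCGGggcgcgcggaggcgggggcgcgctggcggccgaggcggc
TIMP1, chrX:47582186-47582435, plus strand: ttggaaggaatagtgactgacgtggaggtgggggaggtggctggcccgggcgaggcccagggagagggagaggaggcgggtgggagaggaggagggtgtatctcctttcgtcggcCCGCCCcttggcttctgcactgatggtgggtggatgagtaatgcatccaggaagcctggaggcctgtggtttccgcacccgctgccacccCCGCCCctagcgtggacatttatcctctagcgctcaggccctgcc
TIMP4, chr3:12158913-12159162, minus strand: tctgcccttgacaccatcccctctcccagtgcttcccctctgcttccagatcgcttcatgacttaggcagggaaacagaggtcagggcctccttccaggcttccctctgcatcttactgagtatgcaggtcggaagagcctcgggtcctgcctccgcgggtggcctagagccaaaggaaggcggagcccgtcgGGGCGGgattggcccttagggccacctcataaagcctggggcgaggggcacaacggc
MMP7, chr11:102530748-102530997, minus strand: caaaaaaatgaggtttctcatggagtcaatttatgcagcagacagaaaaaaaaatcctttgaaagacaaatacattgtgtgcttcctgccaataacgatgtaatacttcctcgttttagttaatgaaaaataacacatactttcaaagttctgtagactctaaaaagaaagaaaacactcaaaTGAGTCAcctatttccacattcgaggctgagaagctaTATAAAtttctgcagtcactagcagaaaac
The MMP7 promoter holds an AP-1 motif that begins 67 bases before the start and a TATA box 30 bases before it. Its neighbour MMP10 has the same pair at 67 and 31 bases. Of the members with an entry, 4 of 26 held the AP-1 motif and 7 of 26 the TATA box, against 6.57% and 10.7% of all promoters in the table. The TATA box was found in 5 of the 7 dim members and in 2 of the 19 brighter ones. It began 28 (MMP26), 30 (MMP7), 72 (MMP20), 92 (MMP21) and 110 (MMP8) bases before the start in the dim members. In the brighter ones it began at 31 (MMP10) and 78 (ADAMTS10). The GC box was found in 1 of the 7 dim members and in 17 of the 19 brighter ones, against 42.6% of all promoters. The 1 dim member was ADAMTS20, with a GC content of 68.0%. A FOXH1 motif (TGTGNATT), named for a factor through which activin signals can reach DNA, was found in 0 of 26 (2.89% of all promoters). A T-box motif (GGTGTGA), the letters of factors such as EOMES, was found in 1 of 26, MMP21 (2.76% of all promoters). All motifs were searched on both strands, and no 2 of the motifs share letters that let one match lie wholly within another. The matches are descriptions of letters, not of bound sites.

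After 5 days, 2 member probe sets were called higher and 5 were called lower than in undifferentiated cells. ADAMTS18 and ADAMTS9 rose. The gelatinase MMP9, the membrane-type proteases MMP24 and MMP16, ADAMTS16 and the probe set shared by ADAMTS20 and THAP12 fell. The test was limma's moderated test with Benjamini-Hochberg adjustment over all 18495 probe sets and a threshold of 0.05. These 7 of 45 (15.6%) stand beside 5.46% of all probe sets called in either direction, 2.56% higher and 2.89% lower. The median difference over the members was -0.08 on the log2 scale, against -0.02 over all probe sets. At day 5, 9 members did not overlap with day 0 (2 higher and 7 lower, 20.0%), against 14.6% of all probe sets (6.07% higher and 8.57% lower). Without day 3 replicate 2, which enters this comparison only through the shared spread, 2 members were called higher and 5 lower, against 4.07% and 4.66% of all probe sets (8.73% in either direction).

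**Figure D1:**
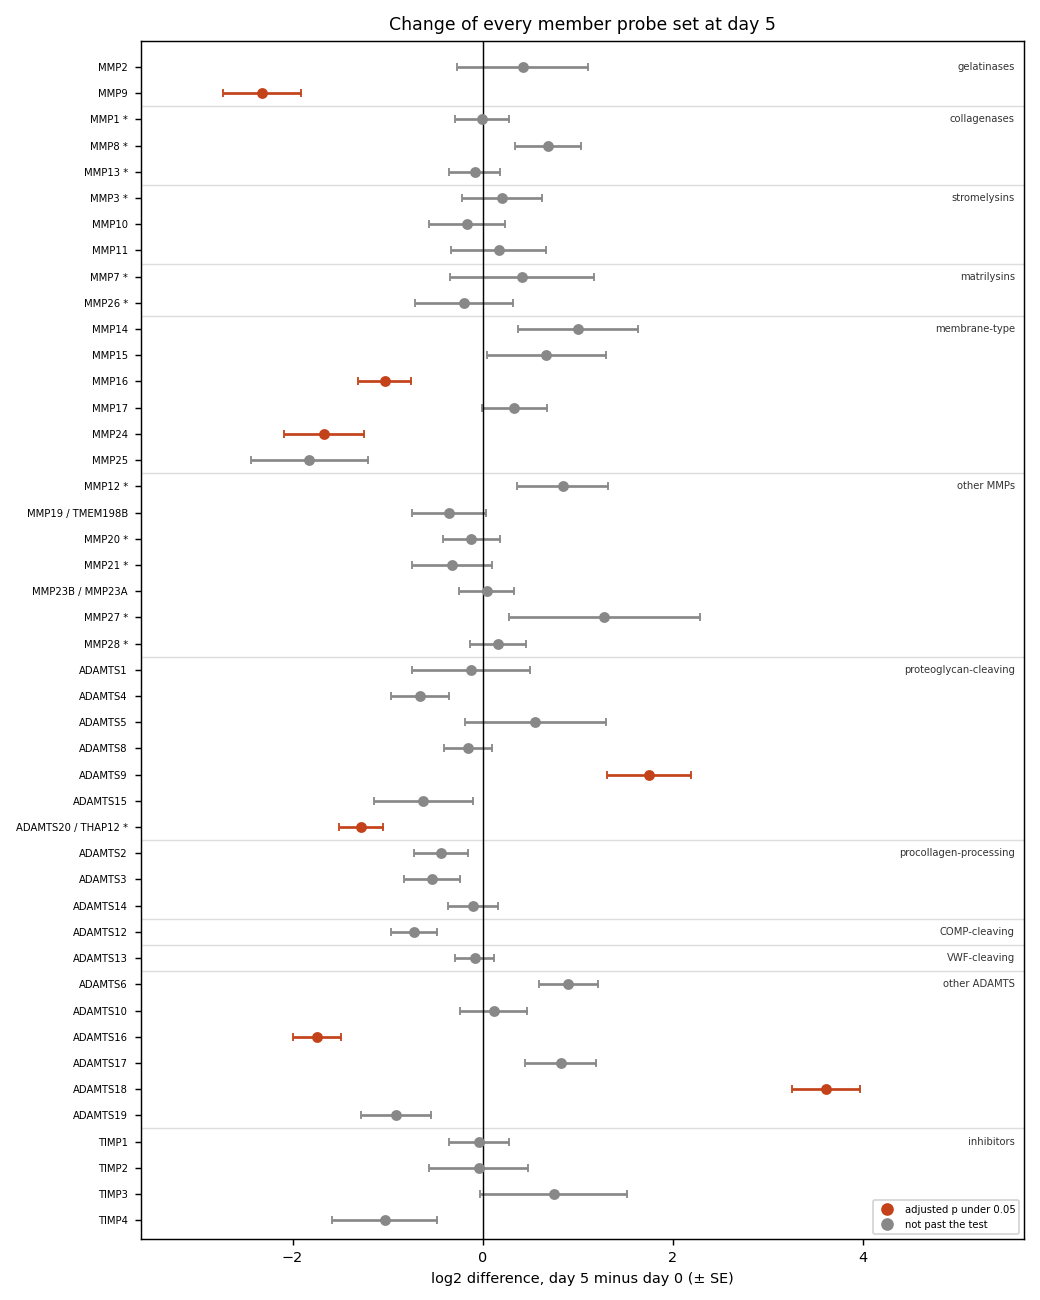
Difference between day 5 and day 0 (log2 scale, day 5 minus day 0) for the 45 member probe sets, with bars of 1 standard error from limma. Red points passed an adjusted p of 0.05, and an asterisk marks the 12 probe sets in the dimmest 25%. ADAMTS18 lies farthest to the right at 3.62 and MMP9 farthest to the left at -2.32.

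ADAMTS18, a protease gene mutated in inherited eye disorders, showed the largest difference among the members. Its values were 4.58, 4.14, 4.93 and 4.51 at day 0, 5.07, 4.94 and 4.73 at day 1, 5.08, 5.07 and 6.62 at day 3, and 7.42, 8.48, 8.40 and 8.34 at day 5. Every day 5 sample lay above every earlier one, and day 3 replicate 3 was the only earlier sample above 6. The difference between day 5 and day 0 was 3.62 ± 0.36 (log2, SE), or 12.3-fold on the scale of intensity plus 1, with an adjusted p of 0.000332 (limma). It was also the only member called between day 5 and day 3, where it was higher by 2.57 ± 0.39 (limma, adjusted p = 0.0268), against 0.0973% of all probe sets called and 0.0919% called higher. Between those days 4 members did not overlap (1 higher and 3 lower), against 4.98% of all probe sets (2.61% higher and 2.37% lower), and 5 had an unadjusted p under 0.05 (5.99% of all probe sets). Without day 3 replicate 2 no member was called, against 0.157% of all probe sets, 9 had an unadjusted p under 0.05 (10.8%), and 12 did not overlap (3 higher and 9 lower, 26.7%), against 22.8% of all probe sets (10.3% higher and 12.4% lower). The call between days 5 and 3 was lost without day 3 replicate 1 (2.31, limma adjusted p = 0.148), day 3 replicate 2 (2.30, 0.0625), and day 5 replicates 2, 3 and 4 (2.46, 2.49 and 2.50, with adjusted p of 0.0694, 0.0699 and 0.0913). Its day 3 samples lay above all day 0 samples, but that difference of 1.05 ± 0.39 did not pass the test (limma, adjusted p = 0.397; without day 3 replicate 2, 1.31 and 0.133).

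ADAMTS16, the closest relative of ADAMTS18 within the family, moved the other way. Its values were 7.61, 7.91, 7.93 and 8.32 at day 0, 7.64, 7.09 and 7.98 at day 1, 6.99, 7.06 and 7.61 at day 3, and 6.13, 6.18, 6.45 and 6.04 at day 5. All day 5 samples lay below all others, and day 3 replicate 3 lay just under the lowest day 0 sample, both 7.61 when rounded. The difference between day 5 and day 0 was -1.75 ± 0.25, a 3.35-fold lower value (limma, adjusted p = 0.00138). ADAMTS18 and ADAMTS16 are thus a pair of related genes with opposite called differences.

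ADAMTS9, a secreted enzyme that cleaves versican and aggrecan, rose at day 5. It read 6.01, 5.71, 5.83 and 6.86 at day 0, 5.81, 5.40 and 6.49 at day 1, 7.01, 5.73 and 7.34 at day 3, and 7.69, 6.94, 8.14 and 8.65 at day 5. The day 5 samples lay above all day 0 samples, the closest being 6.94 at day 5 and 6.86 at day 0. The difference was 1.75 ± 0.44, or 3.37-fold (limma, adjusted p = 0.0354). The call was lost without day 0 replicate 1, 2 or 3 or day 5 replicate 1, 3 or 4, with differences of 1.49 to 1.81 and limma adjusted p of 0.0743 to 0.111. Among day 3 samples, replicates 1 and 3 stood above day 0 and replicate 2 did not.

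MMP9, gelatinase B, cuts denatured collagen and basement membrane collagen. It read 7.78, 7.92, 8.17 and 9.45 at day 0, 7.13, 7.00 and 7.00 at day 1, 6.33, 7.63 and 6.25 at day 3, and 5.97, 5.37, 6.21 and 6.50 at day 5. No sample of days 1, 3 or 5 reached the lowest day 0 sample. At day 5 it was 5.00-fold lower than at day 0, a difference of -2.32 ± 0.41 (limma, adjusted p = 0.00516). Day 0 replicate 4, with the highest COL1A1 but the lowest LUM value of day 0, was also the highest for MMP9, and without it the difference was -1.95 (limma, adjusted p = 0.0119); the part of fibroblast RNA in this value was not tested. The differences at day 1 (-1.29 ± 0.44) and day 3 (-1.60 ± 0.44) did not pass the test (limma, adjusted p = 0.552 and 0.232), but without day 3 replicate 2 the day 3 difference was -2.04 and was called (limma, adjusted p = 0.0234).

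**Figure D2:**
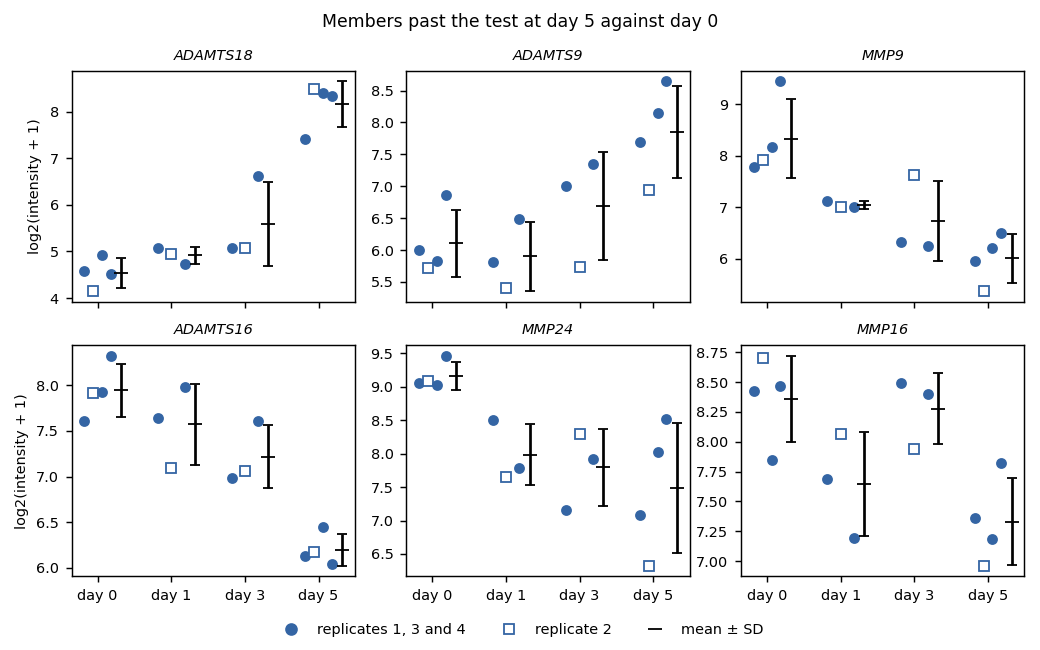
Log2 intensity of ADAMTS18, ADAMTS9, MMP9, ADAMTS16, MMP24 and MMP16 in the 14 samples by day, with the mean and SD of each day beside the points. Open squares are replicate 2 of days 0 to 5. At day 5 ADAMTS18 lies between 7.42 and 8.48, above all earlier samples, and MMP9 between 5.37 and 6.50, below all day 0 samples.

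MMP2, gelatinase A, did not show the course of MMP9. It read 9.19, 9.44, 9.32 and 10.17 at day 0, 10.63, 9.39 and 10.48 at day 1, 11.04, 8.06 and 10.78 at day 3, and 10.43, 8.09, 10.47 and 10.81 at day 5. In replicates other than the second, values after activin were 10.43 or more, above every day 0 sample, whereas replicate 2 lay at 8.06 to 9.39 after activin. The difference between day 5 and day 0 was 0.42, with overlapping groups (limma, adjusted p = 0.824).

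The membrane-type MMPs, which are held at the cell surface, number 6 here, and 2 of them were called lower at day 5. MMP24 (MT5-MMP, best known from neurons) read 9.05, 9.09, 9.02 and 9.46 at day 0, 8.50, 7.66 and 7.79 at day 1, 7.16, 8.30 and 7.92 at day 3, and 7.09, 6.32, 8.02 and 8.52 at day 5. Every sample after day 0 lay below every day 0 sample. The difference at day 5 was -1.67 ± 0.43, or 3.18-fold lower (limma, adjusted p = 0.0376). The call was lost without any 1 of the 4 day 0 replicates or day 5 replicate 1 or 2, with differences of -1.71 to -1.28 and limma adjusted p of 0.0747 to 0.111.

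MMP16 (MT3-MMP, an activator of MMP2) read 8.43, 8.70, 7.85 and 8.47 at day 0, 7.68, 8.06 and 7.19 at day 1, 8.49, 7.94 and 8.40 at day 3, and 7.36, 6.96, 7.18 and 7.82 at day 5. Day 3 lay at the level of day 0, and the closest samples of days 5 and 0 were 7.82 and 7.85. The difference at day 5 was -1.03 ± 0.28, or 2.04-fold lower (limma, adjusted p = 0.0481). The call was lost without day 0 replicate 1, 2 or 4 or day 5 replicate 1, 2 or 3 (-1.04 to -0.91, limma adjusted p of 0.106 to 0.148). A second, dimmer MMP16 probe set overlapped between the days and was not called (-0.57 ± 0.44, limma adjusted p = 0.600).

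MMP25 (MT6-MMP, anchored by a lipid) lay apart at day 5 but was not called. It read 8.19, 8.26, 8.27 and 8.97 at day 0, 8.65, 7.57 and 8.74 at day 1, 8.49, 7.06 and 8.34 at day 3, and 7.15, 4.37, 7.48 and 7.40 at day 5. The difference of -1.82 ± 0.61 had a limma adjusted p of 0.117, and day 5 replicate 2 alone held the lowest value. Without that sample the difference was -1.08 (limma, adjusted p = 0.174).

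MMP14 (MT1-MMP), which activates MMP2 at the cell surface together with TIMP2, read 9.99, 9.95, 10.33 and 10.95 at day 0, 10.17, 9.57 and 10.72 at day 1, 11.68, 8.92 and 11.86 at day 3, and 11.39, 9.89, 12.00 and 11.97 at day 5. At days 3 and 5, all samples but replicate 2 lay above day 0, and replicate 2 lay below it. The difference at day 5 was 1.00 and did not pass (limma, adjusted p = 0.485). MMP15 (MT2-MMP) read 8.87, 9.03, 9.30 and 8.96 at day 0, 9.71, 6.91 and 9.99 at day 3, and 9.23, 8.54, 10.64 and 10.43 at day 5, and was not called. Its replicate 2 lay below day 0 at both later days, and day 5 replicate 1 lay within the range of day 0. MMP17 (MT4-MMP) stayed between 10.86 and 12.43 in all samples.

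The probe set annotated to both ADAMTS20 and THAP12 cannot be assigned to 1 of them. It read 6.31, 6.50, 5.74 and 6.44 at day 0, 6.42, 5.97 and 6.00 at day 1, 5.46, 5.68 and 5.46 at day 3, and 5.12, 5.22, 4.62 and 4.91 at day 5. The day 3 and day 5 samples lay below all of day 0, and those of day 5 below those of day 3. The difference at day 5 was -1.28 ± 0.23, or 2.43-fold lower (limma, adjusted p = 0.00593), within the dimmest 25% of probe sets.

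Among the inhibitors, no TIMP was called in any of the 5 comparisons over all samples. TIMP1, a secreted inhibitor that also binds the MMP9 precursor, read 11.03, 10.97, 11.30 and 11.13 at day 0, 10.58, 10.36 and 10.78 at day 1, 11.97, 10.62 and 11.91 at day 3, and 11.24, 10.39, 11.29 and 11.35 at day 5. Day 1 lay below day 0 without overlap, and day 3 lay above it except for replicate 2. Between day 3 and day 1 the difference was 0.93 ± 0.36 (limma, adjusted p = 0.452), and without day 3 replicate 2 it was 1.36 and was called (limma, adjusted p = 0.0316).

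TIMP4, the fourth family member, differed from day 0 in the opposite direction to TIMP1 at days 1 and 3, but not at day 5. It read 8.96, 8.93, 9.61 and 8.45 at day 0, 9.99, 10.74 and 9.47 at day 1, 7.16, 9.99 and 7.11 at day 3, and 8.08, 8.22, 7.96 and 7.56 at day 5. The highest value was at day 1 (10.74), and day 3 replicate 2 lay with day 1 rather than with its own group. Over all samples, the difference between day 3 and day 1 was -1.98 ± 0.63 (limma, adjusted p = 0.312). Without day 3 replicate 2 it was -2.93 (limma, adjusted p = 0.00315), and the difference between day 3 and day 0 was -1.86 (limma, adjusted p = 0.0179), against -0.90 and 0.755 with it. The day 5 samples lay below all day 0 samples, a difference of -1.03 that did not pass (limma, adjusted p = 0.384).

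TIMP2, the partner of MMP14 in MMP2 activation, read 9.98, 9.73, 9.92 and 10.86 at day 0, 10.15, 9.27 and 9.95 at day 1, 10.95, 9.03 and 10.82 at day 3, and 10.21, 8.67, 10.56 and 10.88 at day 5. TIMP3, the inhibitor bound to the matrix, read 7.63, 8.45, 8.36 and 10.76 at day 0, 8.31, 7.27 and 9.45 at day 1, 10.47, 7.89 and 10.49 at day 3, and 9.49, 8.42, 9.57 and 10.69 at day 5. Both had overlapping groups at day 5. A second probe set annotated to TIMP3 and SYN3, within whose locus TIMP3 lies, differed from it: it fell to 6.58, 6.92, 7.02 and 7.10 at day 5, against 9.07, 9.04, 8.92 and 8.91 at day 0 (-2.08 ± 0.34, limma adjusted p = 0.00339). TIMP3's own probe set gave 0.75 ± 0.78 and was not called (limma, adjusted p = 0.707). The shared probe set is annotated to both genes and is not assigned to either.

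**Figure D3:**
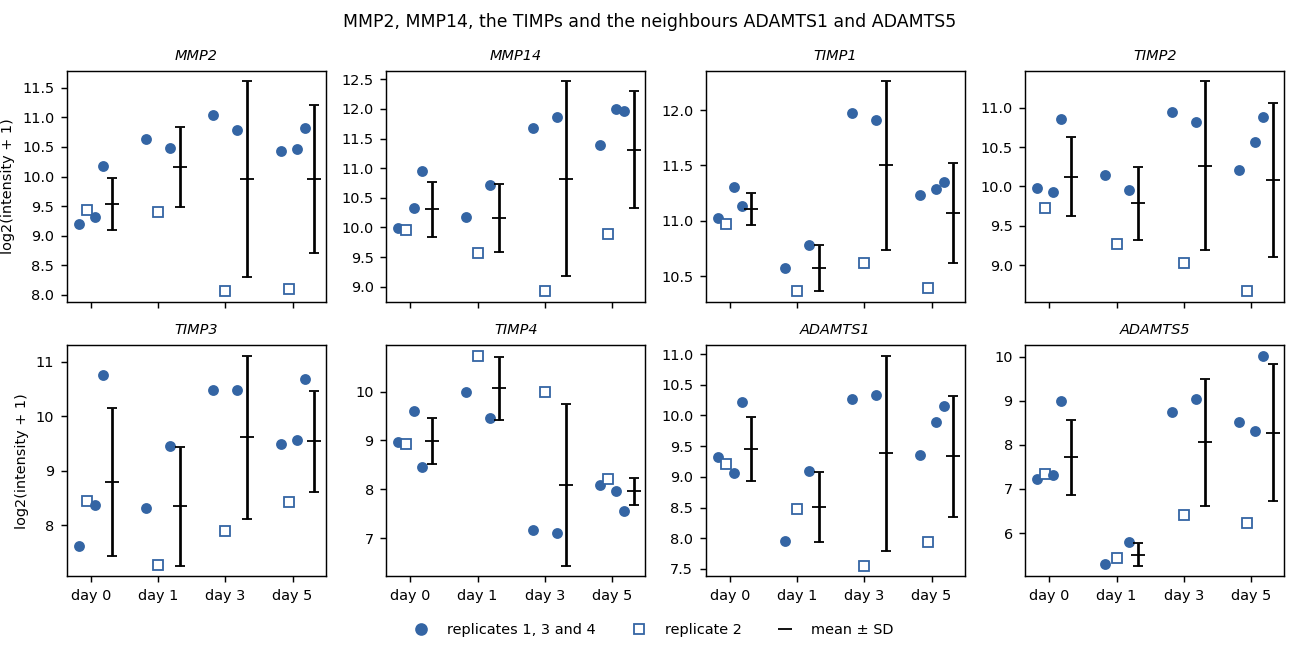
Log2 intensity of MMP2, MMP14, TIMP1, TIMP2, TIMP3, TIMP4, ADAMTS1 and ADAMTS5 in the 14 samples by day, with the mean and SD of each day. Open squares are replicate 2. At day 3 this sample lies apart from the other pair in every panel, below it for MMP2 (8.06) and above it for TIMP4 (9.99).

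Replicate 2 was the lowest sample at days 1, 3 and 5 alike for 10 of the 45 members (22.2%), against 23.5% of all probe sets, a share near the background. These were MMP2, MMP11, MMP14, MMP15, MMP25, TIMP1, TIMP2, TIMP3, ADAMTS9 and ADAMTS10. It was the highest at all 3 days for 3 members (6.67%), ADAMTS6, ADAMTS13 and TIMP4, against 22.6% of all probe sets.

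After 1 day, no member was called, against 0.00541% of all probe sets. At an unadjusted p under 0.05 there were 6 members (6.03% of all probe sets), and 7 members did not overlap with day 0 (2 higher and 5 lower, 15.6%), against 11.5% of all probe sets (4.86% higher and 6.62% lower). There was no call without day 3 replicate 2 either, against 0.249% of all probe sets. ADAMTS5, a main aggrecanase, had the largest such difference. It read 7.23, 7.34, 7.31 and 9.00 at day 0, 5.30, 5.44 and 5.80 at day 1, 8.74, 6.41 and 9.03 at day 3, and 8.52, 6.24, 8.31 and 10.03 at day 5. Day 1 lay below every other sample, with a difference from day 0 of -2.21 ± 0.80 (limma, adjusted p = 0.609), and from day 1 to day 3 the difference was 2.55 ± 0.86 (limma, adjusted p = 0.348; without day 3 replicate 2, 3.37 and 0.0551).

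ADAMTS1, its neighbour on chromosome 21 and also a proteoglycan-cleaving enzyme, read 9.33, 9.20, 9.07 and 10.22 at day 0, 7.96, 8.48 and 9.10 at day 1, 10.27, 7.55 and 10.34 at day 3, and 9.35, 7.94, 9.89 and 10.16 at day 5. Day 3 overlapped with every other day over all samples. Without day 3 replicate 2 it lay above days 0, 1 and 5 with no overlap, the closest samples being 10.27 at day 3 and 10.22 at day 0, and no difference passed (limma, adjusted p = 0.585, 0.138 and 0.532). ADAMTS12, which cuts the cartilage protein COMP, read 7.83, 7.92, 7.47 and 8.41 at day 0, and 6.93, 6.69 and 6.38 at day 1, then 7.26, 7.14 and 7.47 at day 3 and 6.90, 7.11, 7.16 and 7.57 at day 5. Its day 1 difference of -1.24 ± 0.26 did not pass (limma, adjusted p = 0.129).

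After 3 days, no member was called against day 0 over all samples, beside 0.027% of all probe sets. There were 8 members at an unadjusted p under 0.05 (8.56% of all probe sets) and 9 without overlap (1 higher and 8 lower, 20.0%), against 9.82% of all probe sets (3.27% higher and 6.55% lower). Without day 3 replicate 2, 2 members were called lower, MMP9 and TIMP4, against 1.14% of all probe sets lower and 3.19% in either direction. The members without overlap then numbered 20 (10 higher and 10 lower, 44.4%), against 32.3% of all probe sets (14.9% higher and 17.4% lower), and 11 had an unadjusted p under 0.05 (14.3%). Between day 3 and day 1, no member was called over all samples (0.0324% of all probe sets), 5 had an unadjusted p under 0.05 (8.62%), and 6 did not overlap (4 higher and 2 lower), against 12.6% of all probe sets (5.11% higher and 7.53% lower). Without that library, TIMP1 was called higher and TIMP4 lower, against 1.89% of all probe sets higher and 0.843% lower (2.73% in all). Members without overlap then numbered 24 (18 higher and 6 lower, 53.3%), against 42.6% of all probe sets (19.9% higher and 22.7% lower), and 13 had an unadjusted p under 0.05 (16% of all probe sets). MMP10 read 5.35, 6.18 and 4.86 at day 3, against 6.24, 6.66, 6.58 and 6.69 at day 0, and lay at 5.58 to 6.85 at day 5 (day 3 against day 0, -1.08 ± 0.43, limma adjusted p = 0.470; without day 3 replicate 2, -1.44 and 0.128).

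Across all 3 comparisons with day 0 at once, limma's moderated F test called 4 member probe sets, ADAMTS18 (adjusted p = 0.00122), ADAMTS16 (0.00736), the one shared by ADAMTS20 and THAP12 (0.0204) and MMP9 (0.0271). This is 8.89% of members, against 3.73% of all probe sets. With day 3 replicate 2 left out the count was 8, or 17.8%, against 8.2% of all probe sets. It was 2 without day 0 replicate 2 or 4, day 1 replicate 1, or day 5 replicate 1 or 3. The share over all probe sets was not counted in those fits.

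**Figure D4:**
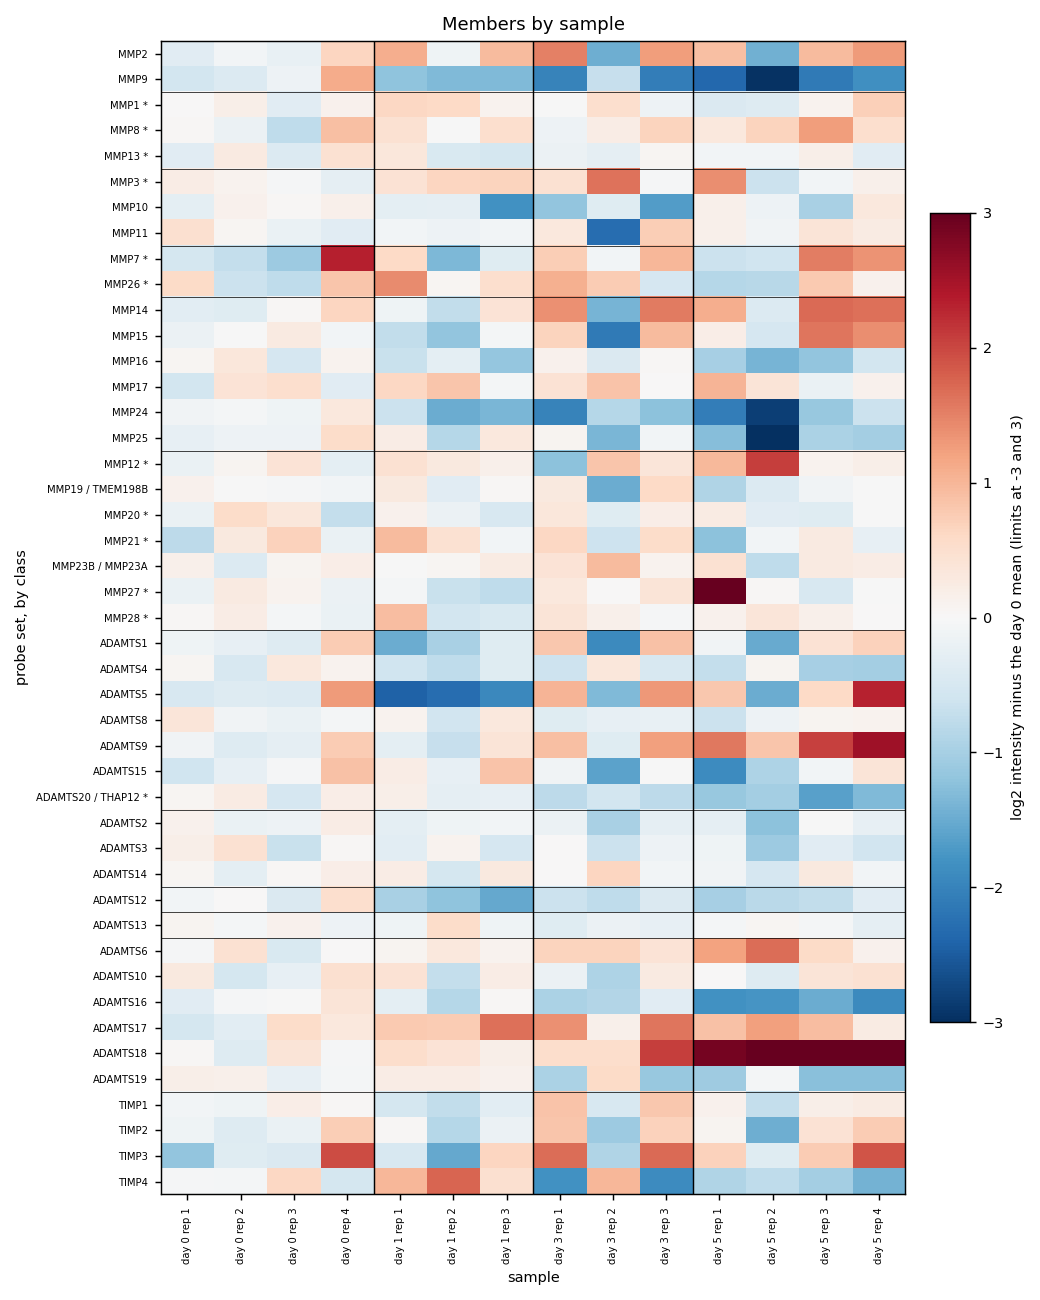
Log2 intensity of the 45 member probe sets in the 14 samples, as the difference from the mean of day 0, with colours cut off at -3 and 3 and an asterisk on probe sets in the dimmest 25%. ADAMTS18 stands out at day 5, and the column of day 3 replicate 2 differs from the other day 3 columns in MMP14, MMP15, TIMP1 and TIMP4.

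The remaining classes showed no call at day 5. The procollagen-processing enzymes ADAMTS2, ADAMTS3 and ADAMTS14 differed from day 0 by -0.53 to -0.10. The stromelysins MMP3, MMP10 and MMP11 differed by -0.17 to 0.20 and the collagenases by -0.09 to 0.69. ADAMTS13, the enzyme that cuts von Willebrand factor, differed by -0.08. Of the 9 genes in the chromosome 11 run, 0 were called in any comparison, and their median day 5 difference was 0.20. One of them, MMP27, read 10.55 in day 5 replicate 1, whereas its other 13 samples ran from 4.18 to 5.33.

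ADAMTS6 has 2 probe sets that gave different calls. The brighter one, which represents the gene here, read 5.95, 6.43, 5.52 and 5.99 at day 0, 6.05, 6.30 and 6.07 at day 1, 6.64, 6.64 and 6.39 at day 3, and 7.18, 7.64, 6.56 and 6.11 at day 5 (0.90 ± 0.31 between days 5 and 0, limma adjusted p = 0.128). The dimmer one read 7.20, 7.76, 5.79 and 5.44 at day 5, against 4.34, 4.62, 5.02 and 4.05 at day 0, and was called higher (2.04 ± 0.48, limma adjusted p = 0.0257). ADAMTS19 read 7.64, 8.66, 7.46 and 7.46 at day 5, against 8.88, 8.86, 8.46 and 8.65 at day 0, overlapping only through day 5 replicate 2 (-0.91 ± 0.37, limma adjusted p = 0.212). ADAMTS17, a gene of the Weill-Marchesani group of eye and skeletal disorders, lay above day 0 at day 1, with 6.35, 6.32 and 7.21 against 5.02, 5.23, 6.10 and 5.87 (1.07 ± 0.41, limma adjusted p = 0.660).

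Among 7 lists of 78 genes that activate, inhibit or serve these enzymes, 69 genes were on a probe set with no other symbol. At day 5, 2 of the 69 were called higher and 5 lower than at day 0, against 2.56% and 2.89% of all probe sets, the shares against which the counts of each list are also to be read. The list of other inhibitors had 1 of 9 called, SPOCK3, a matrix proteoglycan of the testican group. SPOCK3 read 7.49, 8.71, 6.83 and 6.20 at day 5, against 4.70, 4.00, 4.47 and 4.49 at day 0 (2.89 ± 0.44, limma adjusted p = 0.00195). RECK, the membrane-anchored MMP inhibitor in the same list, differed by 0.62 and was not called (limma, adjusted p = 0.154).

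Of 11 matrix substrates of ADAMTS enzymes, 1 was called higher and 1 lower at day 5. RELN, a secreted glycoprotein cut by ADAMTS3, rose by 2.06 (limma, adjusted p = 0.0205), and BCAN, brevican, had a difference of -1.42 (limma, adjusted p = 0.0225). ACAN, aggrecan, read 5.41, 3.30, 7.54 and 8.11 at day 5, against 9.48, 8.84, 8.59 and 9.65 at day 0, a difference of -3.05 that did not pass over all samples (limma, adjusted p = 0.0594) and passed without day 3 replicate 2 (0.0421). VWF, the substrate of ADAMTS13, lay above day 0 in every day 5 sample (1.80, limma adjusted p = 0.113, and 0.0126 without that library).

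The ADAM proteases and their kin had 0 of 10 called higher, though 4 had a higher mean. Called lower were 2, ADAM15 (-1.29, limma adjusted p = 0.0362) and ADAM23, which lacks protease activity (-1.44, 0.0124). Of 8 astacin proteases and enhancers, PCOLCE, which speeds the cutting of procollagen by BMP1, was the 1 called, at 7.93, 8.30, 7.89 and 8.29 at day 5, against 9.67, 9.30, 9.36 and 9.50 at day 0 (-1.36 ± 0.20, limma adjusted p = 0.00173). Among 18 inducers and regulators of MMP genes, ETV1, an ETS transcription factor, was the 1 called (-1.67 ± 0.22, limma adjusted p = 0.000847). The AP-1 subunits FOS and JUN were not called.

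None of 8 activating proteases and receptors passed in any comparison, with or without day 3 replicate 2. PLAU, the urokinase that makes plasmin, read 8.58, 9.27 and 8.34 at day 1, against 10.45 to 12.44 at day 0 (-2.47 ± 0.48, limma adjusted p = 0.107). Its receptor PLAUR read 7.81, 7.47 and 7.47 at day 1, against 8.49, 8.73, 8.85 and 9.87 at day 0 (-1.41, limma adjusted p = 0.293). None of the 5 ADAMTS-like proteins, relatives without a protease domain, was called over all samples. Without day 3 replicate 2, ADAMTSL4 and ADAMTSL5 were called higher at day 3 than at day 1 (2.20 and 2.45, limma adjusted p = 0.0442 and 0.0405). In that comparison 1.89% of all probe sets were called higher and 2.73% in either direction.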

How the data were processed

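The deposited table holds 1 linear intensity per probe set and array, as the authors gave it, for 16 arrays and 18495 probe sets. Per the submitters' processing notes the build was hg18. How probes were summarised and normalized is not given in the sources used here. Array medians of 245.1 to 246.3 were nearly equal, and 636 values were below 0. An array has no read depth, so the number of arrays limits precision.

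Intensities were taken as log2(value + 1), and the technical arrays of replicate 4 at days 0 and 5 were averaged, leaving 14 samples. limma 3.58.1 in R 4.3.3 (lmFit, eBayes) fitted the group alone over all probe sets, and p-values were adjusted by Benjamini-Hochberg. Of the probe sets 14577 carried 1 symbol, 2849 several and 1069 none, and 3 member probe sets carried several. The members and lists were chosen with earlier results of these data known. Named members are those called, the 4 largest differences without overlap per comparison, all TIMPs, MMP2, MMP9 and MMP14, with others by class. ADAMTS1, ADAMTS13, ADAMTS17, ADAMTS19, MMP15 and MMP17, with RECK, ACAN, VWF, FOS and JUN, were added after their values were seen, as were the second probe sets. Promoter sequences came from RefSeq (GRCh38.p14).

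Same-numbered samples deviated together between days 3 and 1 (correlations of 0.19 to 0.51, 3 pairs) but not in every pair of any other comparison. Alternatives covered arrays, blocks, normalization, filters, weights, thresholds and left-out samples. The fit was tested on simulated data. Figures used Python 3.11.15 and matplotlib 3.10.9.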

Additional observations from a re-analysis of the deposited data

Results flagged for a closer look

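In each group of 4 samples, the sample at either end was set against the others by Dixon's test. Of 90 such groups (45 member probe sets at days 0 and 5), 10 had a sample far from the rest, where chance gives about 1 in 20. Day 5 replicate 2 accounts for 4 of them. It was high for ADAMTS19 (8.66) and low for MMP2 (8.09), MMP25 (4.37) and TIMP1 (10.4). Day 0 replicate 4 accounts for another 4, all high, in ADAMTS5 (9.00), MMP24 (9.46), MMP25 (8.97) and MMP7 (6.50). Day 5 replicate 1 was low for ADAMTS18 (7.42), though still above every earlier sample, and high for MMP27 (10.5). The endoderm marker mean was 11.54 in day 5 replicate 1, 11.21 in day 5 replicate 2 and 6.95 in day 0 replicate 4, and COL1A1 read 8.90, 6.83 and 11.87 in these samples. Their part in the members' values was not tested.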

How the results depend on the processing

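For the 26 pairs of a named member and a comparison, 584 values were computed under alternatives, of which 525 kept their direction and side of the threshold, 34 lost a call, 25 gained one and 0 changed sign. ADAMTS18, ADAMTS16, MMP9 and the probe set of ADAMTS20 and THAP12 kept their day 5 call under every alternative in which they were tested, leaving out each sample in turn included. Leaving out 1 sample gave 4 to 7 members called at day 5 (4 without day 0 replicate 1 or 2 or day 5 replicate 1), 0 to 2 between day 3 and day 0, 0 to 2 between day 3 and day 1, 0 to 1 between day 5 and day 3, 0 between day 1 and day 0, and 2 to 8 by the F test. The counts over all probe sets moved as well. In the same order of comparisons they ran from 549 to 1614, 0 to 590, 1 to 505, 1 to 29 and 0 to 46. For the F test, all probe sets were counted only with all samples and without day 3 replicate 2.

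Array weights, which gave day 3 replicate 2 the lowest weight (0.108), gave 3 members called at day 1, 11 at day 3 and 13 at day 5 against day 0, 11 between day 3 and day 1, 3 between day 5 and day 3, and 20 by the F test. The calls rose over the whole array too. Of all 18495 probe sets, 880, 2349, 2934, 3549 and 515 were called with array weights in these 5 comparisons, in the same order. At an adjusted p under 0.01, 4 members were called at day 5, 0 between day 5 and day 3 (1 of all probe sets), and 2 by the F test. Fitting only the 2 groups compared left 0 members between day 5 and day 3 (0 of all probe sets). Leaving out replicate 2 of days 3 and 5 together, chosen after seeing the data, gave 7 members at day 3 against day 0, 6 between day 3 and day 1, 0 between day 5 and day 3, and 14 by the F test. Over all probe sets, these 3 comparisons then had 1057, 1179 and 18 called, against 5, 6 and 18 with all samples. Deviations of same-numbered samples correlated at 0.19 to 0.51 between days 3 and 1, at -0.14 to 0.65 between days 5 and 3, and at -0.28 to 0.51 between days 5 and 0. With the replicate block, 0 members were called between day 3 and day 1, as without it (1 of all probe sets, against 6 without the block), 8 members were called at day 5, MMP25 being gained (adjusted p = 0.0268), and 5 by the F test, with no other change of call among the named members. Over all probe sets the day 5 count was 1009, against 1448 with the block, 2934 with array weights, 412 at 0.01 and 1835 without both replicates 2. Averaging all probe sets of a gene ended the MMP16 call (-0.80, limma adjusted p = 0.186). The cause of these differences was not tested. Background signal was not used here, so whether the 12 dimmest members lie above it was not tested.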
